A study of Mus musculus with 5 samples.

Results

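The genes described here are 9 targets of serum response factor (SRF) that build or regulate the contractile actin cytoskeleton: Acta2, Tagln, Cnn1, Cnn2, Myl9, Tpm1, Vcl, Srf and Flna. They were chosen by name, with earlier results of these data known, from 18193 genes measured on the arrays. Every probe set annotated to one of these symbols alone was taken, 16 in all. All groups are cultures of B9, a mouse cutaneous squamous cell carcinoma line of genotype HRAS-Q61L, an activating change in a RAS protein. The groups were 2 cultures with 1 µM vemurafenib (PLX4032), 2 with 1 µM PLX7904 and 1 with the vehicle dimethyl sulfoxide (DMSO, given as 0.2%), all harvested after 17 h. The compound volume in the growth protocol corresponds to a lower share of vehicle than the one given for DMSO, and which share the control dish had was not settled. Vemurafenib inhibits mutant BRAF and can raise ERK signalling in cells with mutant RAS. PLX7904 belongs to a later class of BRAF inhibitors, the paradox breakers, which were designed to avoid that rise.

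SRF binds DNA at CArG boxes and works with partners of different kinds. Myocardin-related transcription factors (MRTFs) carry the state of the actin cytoskeleton to genes of contraction and adhesion: when actin is drawn into filaments, MRTFs are released from monomeric actin and enter the nucleus. Ternary complex factors of the ELK family instead carry ERK signals to immediate early genes such as Egr1 and Fos. In skin, Acta2 is best known from smooth muscle, pericytes and myofibroblasts, while keratinocytes and carcinoma cells use non-muscle actins, tropomyosins and calponins.

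CArG boxes were looked for in the 250 bases upstream of the start that a RefSeq promoter table (GRCm38.p6) gives, which held 8 of the 9 genes. The box was taken as a pair of C, 6 bases that are each A or T, and a pair of G, a pattern that reads alike on both strands. An exact match was present for 4 genes (Cnn2, Myl9, Vcl and Srf), and 7 had a match with at most 1 letter off. Of all 32851 upstream windows in the table, 1.47% held an exact match and 18.6% one with at most 1 letter off. The windows of 4 genes are shown: Acta2 and Cnn2, which were called in opposite directions between the compounds, and Vcl and Srf, which hold exact matches and were not called. Capitals mark exact matches, and for Acta2, which has none, the matches that are 1 letter off.
Acta2, chr19:34255374-34255623, minus strand: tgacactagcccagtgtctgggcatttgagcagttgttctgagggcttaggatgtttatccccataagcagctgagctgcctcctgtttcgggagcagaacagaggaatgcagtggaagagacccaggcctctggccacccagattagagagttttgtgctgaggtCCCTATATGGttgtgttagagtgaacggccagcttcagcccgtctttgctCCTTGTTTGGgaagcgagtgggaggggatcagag
Cnn2, chr10:79988350-79988599, plus strand: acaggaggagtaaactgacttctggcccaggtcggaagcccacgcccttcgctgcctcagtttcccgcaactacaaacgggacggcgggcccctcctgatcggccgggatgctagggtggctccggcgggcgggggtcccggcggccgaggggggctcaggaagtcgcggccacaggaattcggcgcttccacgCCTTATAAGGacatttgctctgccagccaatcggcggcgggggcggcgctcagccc
Vcl, chr14:20929148-20929397, plus strand: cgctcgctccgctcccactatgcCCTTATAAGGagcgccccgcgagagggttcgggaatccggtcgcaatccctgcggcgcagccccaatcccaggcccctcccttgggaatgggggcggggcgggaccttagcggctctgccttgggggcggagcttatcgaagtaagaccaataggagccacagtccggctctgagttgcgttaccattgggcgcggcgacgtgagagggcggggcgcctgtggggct
Srf, chr17:46556163-46556412, minus strand: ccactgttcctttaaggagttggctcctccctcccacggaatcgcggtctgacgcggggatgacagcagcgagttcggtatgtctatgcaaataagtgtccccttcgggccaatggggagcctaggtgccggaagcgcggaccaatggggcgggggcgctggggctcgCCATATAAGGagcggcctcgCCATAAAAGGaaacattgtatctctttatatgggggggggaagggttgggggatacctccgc

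The Cnn2 and Vcl boxes have the same letters, CCTTATAAGG, and end 46 bases (Cnn2) and 217 bases (Vcl) before the start. Srf, whose own gene carries the boxes its product binds, has its exact matches 72 and 52 bases before the start. The nearer of the Acta2 matches, CCTTGTTTGG, lies 24 bases before the start and the other, CCCTATATGG, 74 bases. For all matched genes except Cnn2 the annotated span reaches further upstream than the start used in the table, so distances hold for that start alone. A match describes letters in this window and does not show that SRF binds there.

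Signals are the deposited MAS5 intensities, one value per probe set and array on a linear scale. A probe set was tested if its mean signal over the groups reached 47.4, the median of all values. Of the 16 probe sets, 9 passed, and they represent 6 genes: Acta2, Cnn2, Tpm1, Vcl, Srf and Flna. Differences were fitted with limma to log2(signal + 3.34) over all 19755 probe sets past the filter. A probe set was called at a Benjamini-Hochberg adjusted p under 0.05. Array medians lay between 44.1 and 51.9, and the number of arrays limits the precision. The labels name biological replicates without saying how the cultures were kept apart, so the tests see only array-to-array spread, which may be technical. The single DMSO array borrows its variance from the treated ones, and all comparisons with DMSO rest on it. The treated arrays of a group correlated at r = 0.988 (vemurafenib) and 0.986 (PLX7904) over the probe sets tested.

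The 3 members that are most typical of smooth muscle besides Acta2 were not measurable at these signals. Tagln, the actin-bundling protein transgelin, read 13.6 and 5.19 with vemurafenib, 2.79 and 2.53 with PLX7904 and 6.13 with DMSO. Cnn1, smooth muscle calponin, read 7.06 and 4.95 with vemurafenib, 7.82 and 2.96 with PLX7904 and 3.42 with DMSO. Myl9, a regulatory light chain of myosin, read 2.44 and 5.07 with vemurafenib, 5.84 and 1.39 with PLX7904 and 6.20 with DMSO. Each of these genes has 1 probe set, all their values lie well below the filter, and replicate arrays differ by up to several fold, so no level or change is given for them.

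**Figure D1:**
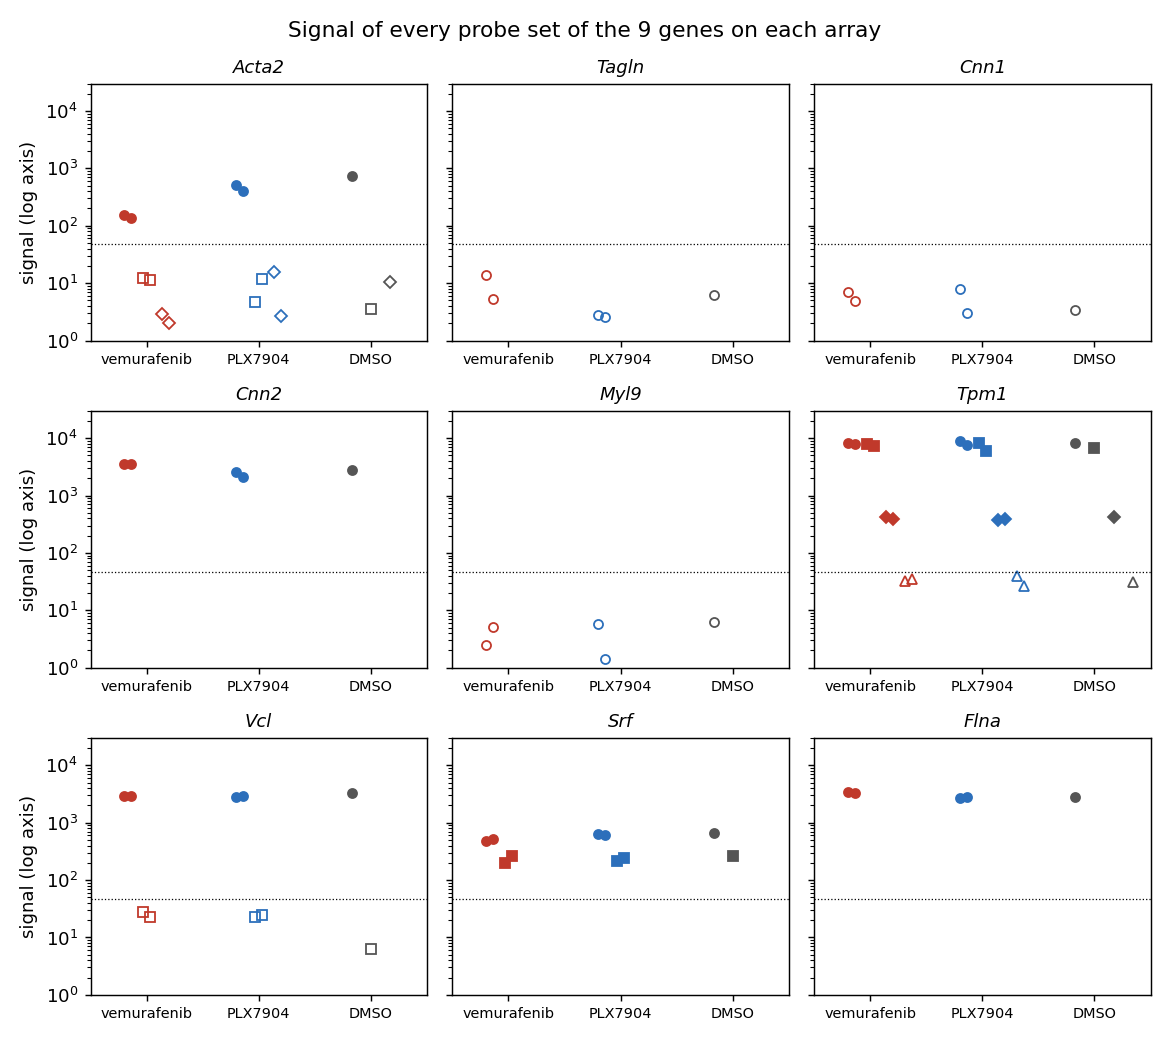
Signal (log axis) of each of the 16 probe sets on each array, by gene and group; marker shapes separate probe sets of a gene, filled markers passed the filter on signal (dotted line, 47.4) and open ones did not. Acta2 is the gene whose brightest probe set separates the groups most clearly, at 135 to 156 with vemurafenib, 411 to 513 with PLX7904 and 722 with DMSO.

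Acta2, the smooth muscle isoform of actin, fell with vemurafenib. Its bright probe set read 156 and 135 on the vemurafenib arrays, 513 and 411 on the PLX7904 arrays and 722 on the DMSO array. The 3 groups did not overlap, with vemurafenib lowest and DMSO highest. The signal was 4.88 times lower with vemurafenib than with DMSO (95% interval 3.61 to 6.61, log2 -2.29, SE 0.20, limma adjusted p = 2.2e-04). It was 3.11 times lower with vemurafenib than with PLX7904 (2.43 to 3.99, log2 -1.64, SE 0.16, adjusted p = 3.85e-04), the comparison that has replicates on both sides. With PLX7904 it was 1.57 times lower than with DMSO (1.16 to 2.12), which did not pass over all probe sets (limma adjusted p = 0.629). In RNA from whole cultures, fewer cells that express a gene and less RNA per cell cannot be told apart.

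The Acta2 value comes from a probe set whose suffix, s, marks possible matches to several transcripts. The other Acta2 probe sets stayed below the filter, at 2.03 to 12.4 with vemurafenib, 2.64 to 15.9 with PLX7904 and 3.56 to 10.7 with DMSO, and averaging all of them ended both calls (log2 -0.81 for vemurafenib minus DMSO, limma adjusted p = 0.352, and -0.69 for vemurafenib minus PLX7904, adjusted p = 0.311). Of the related actins, Acta1 (skeletal muscle actin) read 110 and 114 with vemurafenib, 62.6 and 107 with PLX7904 and 116 with DMSO. Actg2, the enteric smooth muscle actin, stayed between 16.8 and 20.1 on all 5 arrays, and Actc1, cardiac actin, between 7.21 and 43.7. Acta1 and Actc1 did not have the order of the groups that Acta2 had. Actg2 had it, over a narrow range and below the filter. Whether other actins added to the Acta2 signal was not tested. Without limma's trend of variance with intensity no probe set on the arrays was called in any comparison, Acta2 included (adjusted p = 0.101 against DMSO and 0.103 against PLX7904).

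Srf itself did not pass. Its brighter probe set read 485 and 511 with vemurafenib, 645 and 602 with PLX7904 and 671 with DMSO. That probe set, like the bright Acta2 one, has the suffix s for possible matches to several transcripts. Both vemurafenib arrays lay below all others there. The signal was 1.35 times lower with vemurafenib than with DMSO (95% interval 1.09 to 1.67, limma adjusted p = 0.0966) and 1.25 times lower than with PLX7904 (1.05 to 1.49, adjusted p = 0.111). The dimmer Srf probe set read 200 and 261 with vemurafenib, 217 and 244 with PLX7904 and 268 with DMSO, so that the compounds overlapped. Its log2 difference between them was -0.01 (95% interval -0.41 to 0.39).

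Cnn2, a calponin of non-muscle cells that steadies actin filaments, was higher with vemurafenib than with PLX7904. It read 3562 and 3563 on the vemurafenib arrays, 2560 and 2115 on the PLX7904 arrays and 2798 on the DMSO array. The DMSO value lay between the compounds. The compounds differed 1.53-fold (95% interval 1.32 to 1.77, log2 0.61, SE 0.10, limma adjusted p = 0.00438). Neither compound passed against DMSO: vemurafenib was 1.27-fold higher (1.06 to 1.53, adjusted p = 0.108) and PLX7904 1.20 times lower (1.00 to 1.44, adjusted p = 0.814). The vemurafenib difference from DMSO passed with median centring (log2 0.53, adjusted p = 0.0467) and when either PLX7904 array was left out (0.0326 and 0.031 as adjusted p).

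Flna, filamin A, which crosslinks actin filaments into networks, read 3489 and 3306 with vemurafenib, 2746 and 2830 with PLX7904 and 2856 with DMSO. Both vemurafenib arrays lay above the others. It was 1.22-fold higher with vemurafenib than with PLX7904 (95% interval 1.09 to 1.37, log2 0.28, limma adjusted p = 0.0415). That call ended when any 1 of the 4 treated arrays was left out (adjusted p from 0.0705 to 0.275), after quantile normalization (0.0547) and without the filter on signal (0.0723). Against DMSO it was 1.19-fold higher with vemurafenib (1.03 to 1.37, adjusted p = 0.136), which passed with median centring (log2 0.43, adjusted p = 0.0455). With PLX7904 the log2 difference from DMSO was -0.03 (-0.24 to 0.17).

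Tpm1, an alpha-tropomyosin that lies along actin filaments, gave no call from any of its 3 tested probe sets. The brightest read 8097 and 7794 with vemurafenib, 8821 and 7485 with PLX7904 and 8118 with DMSO. Its log2 difference was -0.03 between vemurafenib and DMSO (95% interval -0.25 to 0.19) and -0.03 between the compounds (-0.21 to 0.15). The next read 7872 and 7207 with vemurafenib, 8256 and 5893 with PLX7904 and 6843 with DMSO, and the third 415 and 397, 381 and 391, and 420 in the same order of groups. PLX7904 arrays spread more widely than vemurafenib arrays in both brighter probe sets, and overlapped both other groups there. Both vemurafenib arrays lay below the DMSO array in the brightest probe set and above it in the next.

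Vcl, vinculin, which ties actin filaments to integrin and cadherin adhesions, did not differ between the compounds beyond the spread of the arrays. It read 2877 and 2904 with vemurafenib, 2856 and 2917 with PLX7904 and 3233 with DMSO. The treated arrays overlapped and all lay below the DMSO array. The log2 difference between the compounds was 0.00 (95% interval -0.16 to 0.16), and each compound was 1.12 times lower than DMSO (limma adjusted p = 0.315 for vemurafenib and 0.875 for PLX7904). A second Vcl probe set, below the filter, read 27.3 and 23.0 with vemurafenib, 22.8 and 24.2 with PLX7904 and 6.38 with DMSO, the opposite order.

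**Figure D2:**
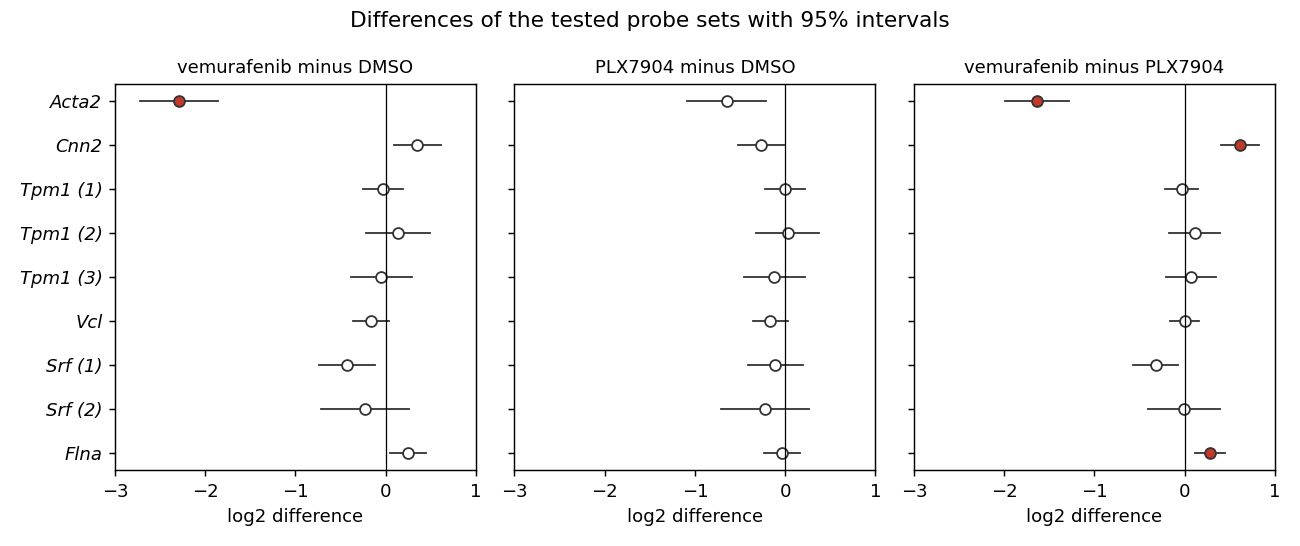
Log2 differences of the 9 tested probe sets in the 3 comparisons, with 95% intervals from limma; red points were called at an adjusted p under 0.05 and numbers in brackets separate probe sets of a gene from brightest to dimmest. Acta2 lies at -2.29 against DMSO and -1.64 between the compounds, while Cnn2 (0.61) and Flna (0.28) lie on the other side between the compounds.

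Counted together, the 9 tested probe sets gave 1 call with vemurafenib against DMSO, a lower one, where 7.15% of all probe sets tested were called (3.74% higher, 3.41% lower). Between the compounds 2 were higher and 1 lower with vemurafenib, where 9.17% of all probe sets were called (4.63% higher, 4.54% lower). With PLX7904 against DMSO limma called 0 of them (2 at an unadjusted p under 0.05, which 6.02% of all probe sets reached), and 0% of all probe sets were called. The arrays of the 2 compounds did not overlap for 5 of the 9, a share close to the 53.4% of all probe sets: vemurafenib lay above PLX7904 for 3 (22.2% of all) and below it for 2 (31.2% of all). By gene, the 6 members had a median log2 difference of -0.10 between vemurafenib and DMSO, against -0.05 for all 10852 genes tested, and their values ran from -2.29 to 0.35. Between the compounds the median was -0.02, against -0.04 for all genes, with 3 genes above 0 and 3 below. PLX7904 gave a median of -0.14 against DMSO, where all genes had -0.01, with 5 of 6 genes below 0. The comparisons with DMSO share the DMSO array.

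Bright probe sets read slightly higher on the vemurafenib arrays than dim ones. With the probe sets tested split into 10 equal bins by signal, the dimmest bin had a median log2 difference of -0.23 between vemurafenib and DMSO, and the brightest 0.08. For probe sets within 2-fold of the Acta2 signal the median was -0.09 against DMSO and -0.05 between the compounds. For those within 2-fold of the Flna signal it was 0.00 in both comparisons, and for those near Cnn2 it was 0.00 against DMSO and -0.01 between the compounds. After cyclic loess, which removes such a trend, Acta2 remained at a log2 difference of -2.18 from DMSO (limma adjusted p = 3.5e-04).

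**Figure D3:**
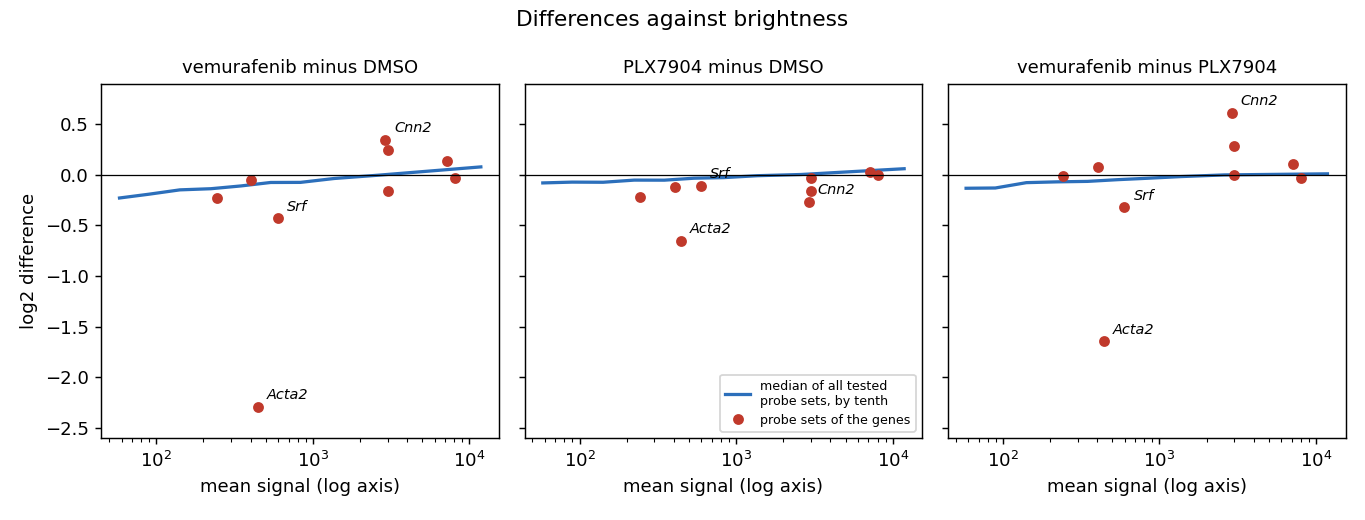
Log2 differences of the 9 tested probe sets (red points) against their mean signal (log axis), with the median of all tested probe sets in 10 equal bins of brightness (blue line). The line runs between -0.23 and 0.08 for vemurafenib minus DMSO, and Acta2 lies far below it at -2.29.

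SRF's partners were measured beside its targets, each gene by its brightest probe set. The coactivators Mrtfa and Mrtfb gave log2 differences of 0.01 (SE 0.14) and 0.00 (SE 0.11) between vemurafenib and DMSO. Myocd, the myocardin of smooth and cardiac muscle, stayed below the filter at 1.94 to 23.6. Of the 3 ternary complex factors Elk1, Elk3 and Elk4, none was called by limma, with log2 differences of -0.20, 0.05 and -0.15 between vemurafenib and DMSO (adjusted p from 0.468 to 0.777).

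Paralogs of the 9 genes, from muscle and from non-muscle cells, were read in the same way. Of 16 listed, 12 were tested and 9 of them had a positive difference, and 3 rose and 0 fell with vemurafenib against DMSO, where 8.39% of all genes were called (4.57% higher, 3.82% lower). Their median log2 difference was 0.15 (all genes -0.05). Most of them, among them Tpm2, Cnn3 and Actg1, lay in the brightest of the 10 bins of signal. All probe sets in that bin had a median of 0.08 between vemurafenib and DMSO. How much of the paralog median goes with brightness was not tested. Tpm2, beta-tropomyosin, read 12161 and 11878 with vemurafenib, 9684 and 9133 with PLX7904 and 8925 with DMSO. It was 1.35-fold higher with vemurafenib than with DMSO (95% interval 1.20 to 1.51, limma adjusted p = 0.00872) and 1.28-fold higher than with PLX7904 (1.17 to 1.40). Cnn3, acidic calponin, rose 1.24-fold against DMSO (1.12 to 1.38) and was 1.22-fold higher than with PLX7904 (1.11 to 1.33). Actg1, cytoplasmic gamma-actin, rose 1.19-fold against DMSO (1.08 to 1.31). The probe sets of Tpm2, Cnn3 and Actg1 have the suffixes a, x and s, which were treated here as open to several transcripts. Between the compounds 2 of the 12 were higher and 0 lower with vemurafenib, where 11.1% of all genes were called (5.63% higher, 5.46% lower).

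Of 28 other genes of contraction and adhesion, 26 were tested, and 6 rose and 2 fell with vemurafenib against DMSO (8.39% of all genes called), while 7 were higher and 2 lower than with PLX7904 (11.1% of all genes called). Cap1, which recycles actin monomers, was 1.70-fold higher against DMSO (95% interval 1.37 to 2.10, limma adjusted p = 0.0119). Smtn, smoothelin, a contractile protein of smooth muscle, was 1.67-fold higher (1.30 to 2.16, adjusted p = 0.0245) and Vasp, which extends actin filaments, 1.36-fold (1.15 to 1.60). Tln1, the integrin activator talin, was 1.46-fold higher with vemurafenib than with PLX7904 (1.23 to 1.74). Enah, a relative of Vasp, went the other way: it read 4068 and 4022 with vemurafenib, 6544 and 7124 with PLX7904 and 6450 with DMSO. It was 1.59 times lower than with DMSO (1.40 to 1.82, adjusted p = 0.00193) and 1.69 times lower than with PLX7904 (1.52 to 1.88, adjusted p = 2.98e-04). Fhl1, a LIM-domain protein of muscle, was 1.53 times lower than with DMSO (1.24 to 1.88). Like Acta2, Enah and Fhl1 were lower with vemurafenib in both comparisons.

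SRF shares the immediate early targets with ternary complex factors. Of 10 listed genes 8 were tested, and 3 rose and 0 fell with vemurafenib against DMSO (8.39% of all genes called), the same counts as between the compounds (11.1% of all genes called). Egr1 read 1327 and 1462 with vemurafenib, 607 and 464 with PLX7904 and 348 with DMSO, Egr3 rose 2.52-fold and Fos 1.87-fold against DMSO. The median log2 difference of the 8 was 0.45 against DMSO, where the 6 contractile targets had -0.10. The difference between the lists was not tested.

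**Figure D4:**
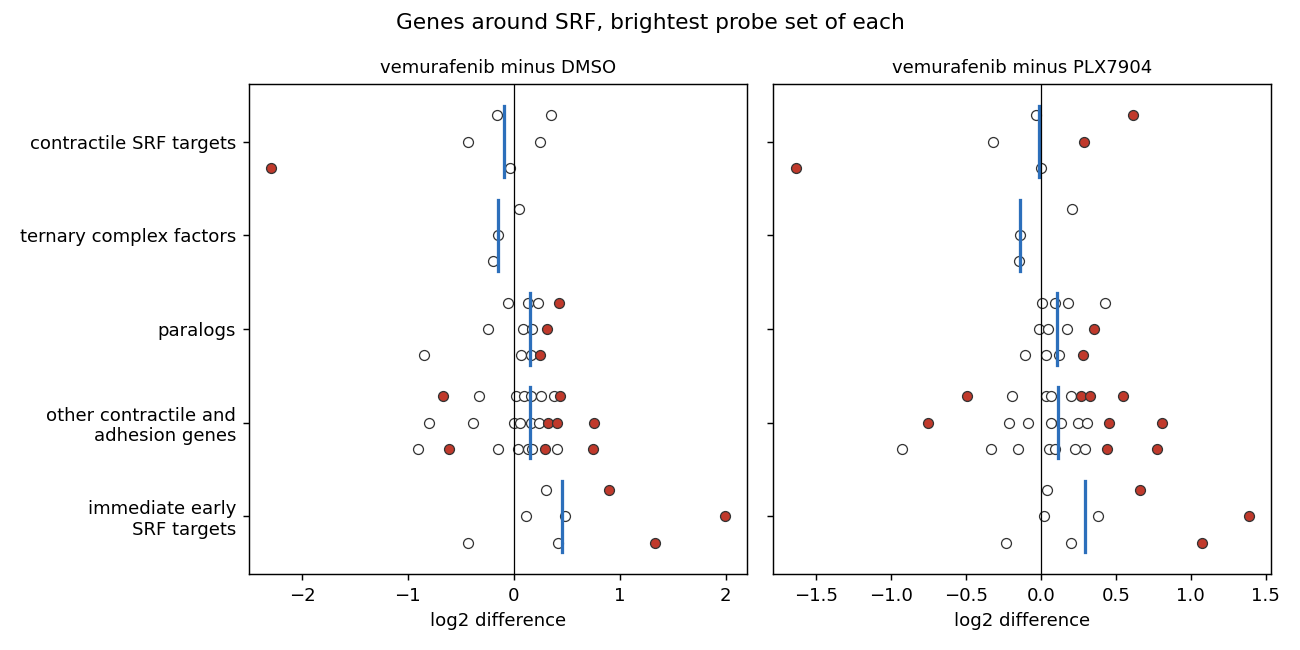
Log2 differences of single genes, by their brightest probe set, in 5 lists around SRF, for vemurafenib minus DMSO (left) and vemurafenib minus PLX7904 (right); red points were called at an adjusted p under 0.05, blue lines are list medians and the height of a point within a list has no meaning. Acta2 is the lowest point of the contractile targets at -2.29 and -1.64, and Egr1 the highest of the immediate early targets at 1.99 and 1.39.

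The genes closest to Acta2 over the 5 arrays were found by the root mean square distance between log2 levels, each centred on the mean of its group means, among 10846 other genes. They were Tppp3, a microtubule-bundling protein (distance 0.14), Cyp1b1, a cytochrome P450 (0.19), Rab27a, a GTPase of vesicle secretion (0.21), Ch25h, cholesterol 25-hydroxylase (0.23), and Gfra3, a co-receptor for artemin (0.28). Tppp3 read 89.0 and 89.6 with vemurafenib, 320 and 294 with PLX7904 and 402 with DMSO. Ch25h read 175 and 205 with vemurafenib, 623 and 649 with PLX7904 and 769 with DMSO. Rab27a read 25.1 and 18.8 with vemurafenib, 71.0 and 47.2 with PLX7904 and 88.5 with DMSO. Gfra3 read 27.8 and 13.3 with vemurafenib, 80.2 and 67.5 with PLX7904 and 84.4 with DMSO. The vemurafenib values of Rab27a and Gfra3 lay below the filter on signal, so the distances of these genes rest partly on dim values. No other contractile gene was among the 5 closest genes.

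Markers of cell types were read on the same arrays. All 8 keratinocyte and epithelial markers passed the filter, with a summed signal of 117466 to 118511 with vemurafenib, 106035 to 109056 with PLX7904 and 100250 with DMSO. Of 7 smooth muscle markers 2 passed (Des and Smtn), and Myh11, Lmod1, Actg2, Synpo2 and Myocd stayed below the filter. Their sum was 714 to 782 with vemurafenib, 391 to 531 with PLX7904 and 543 with DMSO, and most of it was Smtn. Des, the muscle intermediate filament desmin, which passed the filter through the DMSO array, read 24.4 and 41.6 with vemurafenib, 57.7 and 15.0 with PLX7904 and 113 with DMSO, and was not called (log2 -1.73 for vemurafenib minus DMSO, SE 0.75, limma adjusted p = 0.205). Its part in the Acta2 result was not tested. Of 4 pericyte markers 1 passed (Cspg4), with a sum of 28.1 to 65.9 with vemurafenib, 115 to 132 with PLX7904 and 97.8 with DMSO. The sum was lowest with vemurafenib, as for Acta2, but highest with PLX7904, where Acta2 was highest with DMSO. Cspg4 passed the filter through the PLX7904 and DMSO arrays. It read 29.6 and 3.35 with vemurafenib, 63.3 and 80.4 with PLX7904 and 63.7 with DMSO. Cspg4 was not called (log2 -2.17 against DMSO, SE 0.88, limma adjusted p = 0.175), and its part in the Acta2 result was not tested. Of 8 fibroblast markers 1 passed (Pdgfra), and Col1a1, Col1a2, Col3a1, Dcn, Lum, Pdgfrb and Thy1 stayed below the filter. The fibroblast sum was 403 to 423 with vemurafenib, 214 to 268 with PLX7904 and 191 with DMSO, and Pdgfra, a growth factor receptor, rose 2.89-fold against DMSO (2.01 to 4.16, limma adjusted p = 0.00539). Of 4 endothelial markers 1 passed (Pecam1), with a sum of 48.5 to 127 with vemurafenib, 84.4 to 203 with PLX7904 and 181 with DMSO. Pecam1 passed the filter through the DMSO array. It read 6.15 and 35.8 with vemurafenib, 9.27 and 74.0 with PLX7904 and 82.6 with DMSO. Pecam1 was not called (log2 -2.16 against DMSO, SE 1.15, limma adjusted p = 0.303). Of 4 immune markers 3 passed (Cd68, Csf1r and Cd14), and Ptprc stayed below the filter. The sum of all 4 was 822 to 859 with vemurafenib, 810 to 824 with PLX7904 and 773 with DMSO, and most of it was Cd14.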

How the data were processed

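RNA of 5 cultures was labelled with biotin by 3' in vitro transcription and hybridised to GeneChip arrays, per the labels' protocols. The deposited values are one intensity per probe set and array, made with MAS5 per the submitters' processing notes. The MAS5 version was not given in the sources used here. Each array's mean over the central 96% of its values was 499.8, a scaling of whole arrays. Gene symbols come from GEO's platform annotation: 34945 probe sets had 1 symbol, 932 several and 9160 none, and 64 were controls. All 16 probe sets of the 9 genes matched their gene identifier in a RefSeq table of GRCm38.p6.

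From these values log2(signal + 3.34) was computed, the pseudocount being the 10th percentile of all values, and a fold change on this scale understates changes of dim genes. Probe sets with 1 symbol and a mean over group means of at least 47.4 were fitted with 3 group means in limma 3.58.1 (R 4.3.3) by lmFit and eBayes, the prior variance following intensity, at 2 residual and 7.82 prior degrees of freedom. Tests were two-sided and p-values were adjusted by Benjamini-Hochberg over all 19755 probe sets within a comparison. A gene in a list stands as its brightest probe set. The fit was tested on simulated data whose spread was set to follow intensity. That test therefore cannot show whether the intensity trend suits these arrays. One list of upstream signalling genes is not reported here.

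The members and lists were chosen with earlier results of these data known. Named from the other lists were up to 3 called genes at either end in the comparisons of vemurafenib with DMSO and with PLX7904, and the 5 genes nearest to Acta2. Acta1, Actg2, Actc1, Mrtfa, Mrtfb, Myocd, the ELK factors, Des, Cspg4 and Pdgfra were added for their roles after their values were seen. Plots were made in Python 3.11.15 (matplotlib 3.10.9). Alternatives changed the pseudocount, filter, normalization, variance model, probe set rule, replicate block or arrays used.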

Additional observations from a re-analysis of the deposited data

How the results depend on the processing

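The count of called probe sets between vemurafenib and DMSO, 1 as reported, was 0 without the intensity trend, with probe sets averaged by gene, and when those open to several transcripts were dropped, which removes the only bright Acta2 probe set. It was 3 with median centring and 2 with a replicate block, which added Cnn2 (log2 0.42, limma adjusted p = 0.0352). Leaving out 1 treated array at a time gave 1 to 2. Between the compounds the count of 3 was 0 without the intensity trend and 2 to 3 with 1 array left out. It was 2 with probe sets averaged by gene and with those open to several transcripts dropped, in both cases without an Acta2 call. It was also 2 after quantile normalization and without the filter on signal, where Flna was not called. With the replicate block the count was 3, and PLX7904 against DMSO had 0 calls among these genes. Deviations of equally numbered arrays correlated at -0.00 (r = -0.0033), which cannot show whether equally numbered cultures shared a batch. Over all probe sets, the block gave 1122 higher and 1210 lower calls between the compounds, in place of 915 and 897. Median centring moved the median of all probe sets from -0.07 to 0.11 against DMSO, and with it 84.1% of all calls were higher in place of 52.3% (79.0% in place of 50.5% between the compounds). Acta2 stayed below 0 in all alternatives that gave it a value, and Cnn2 above 0 between the compounds in all 18. Only values that were not called as reported changed sign. Tpm1 against DMSO with vemurafenib was 0.15 with median centring, 0.038 with the mean of probe sets and 0.042 with the replicate block. With PLX7904 it was -0.055 after quantile normalization, -0.054 after cyclic loess, -0.0022 with the mean of probe sets and -0.12 to 0.12 with 1 PLX7904 array left out. Between the compounds Tpm1 was 0.096 with median centring, 0.040 with the mean of probe sets and -0.15 to 0.086 with 1 array left out. Vcl against DMSO with vemurafenib was 0.019 with median centring and 0.69 with the mean of probe sets, and with PLX7904 0.65 with the mean. Between the compounds Vcl was -0.016 after quantile normalization, -0.0051 after cyclic loess, -0.0046 without vemurafenib replicate 2 and -0.013 without PLX7904 replicate 1. Flna with PLX7904 against DMSO was 0.017 with median centring. Without PLX7904 replicate 1 another Tpm1 probe set was called in place of Flna.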
